A study of Saccharomyces cerevisiae with 12 samples.

Results

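The profile described here is the log2 ratio of DNA in an eco1 mutant of budding yeast 20 min after release from G1 arrest. The baseline is the DNA labelled as the 0-min sample of the mutant, and there were 2 replicates. It was taken along chromosomes I to XVI in rows of 1 kb. A row was kept where none of the 8 ratio columns of the table was exactly 0, which left 11630 nuclear rows of 12165 rows in all. Each column was then centred on the median of its own chromosome, so a value of 0 is the typical row of that chromosome. By the labels the mutant at 0, 20 and 40 min carried the eco1-W216G allele in strain JG2087, and the wild-type control was strain w303a. In both strains exponential cultures in rich medium were stopped before S phase by α-factor, the mating pheromone, and genomic DNA was sequenced at 0, 20 and 40 min after it had been washed out. Of the 12 libraries, the 4 of the mutant at 20 and 0 min make the profile. Nothing in the labels tells separate cultures from repeated libraries of 1 culture, and p-values therefore reflect a spread that may be technical.

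A chromosome is copied from many origins of replication, which fire at different times in S phase, and each region gains DNA when a fork passes through it. In a ratio of S-phase over G1 DNA, a region copied in many cells stands high and a region copied late stands low. In budding yeast the centromeres and the histone genes are known as early regions, and chromosome ends and the silent mating loci as late ones. Eco1 modifies cohesin behind the fork, by acetylating Smc3, so that the ring holds the new sister chromatids together. The ratio averages over a culture, so the number of cells that had copied a region and the distance that forks had moved in each cell cannot be told apart.

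The 2 mutant 20-min libraries held 7372940 and 7909786 mapped reads, and the 0-min libraries under them 9333329 and 7809183. The other 8 libraries held 5293237 to 10362815. Counting error alone gives an SD of 0.0759 and 0.0776 (log2) for the ratio of 1 row of median depth in the 2 mutant 20-min columns, and of 0.0240 and 0.0245 for a window of 10 rows. Several libraries stand apart. Before centring, the median row of chromosome I lay at 0.56 and 0.54 in the mutant at 20 min, against 0.03 and 0.03 in wild type at 20 min. Chromosomes IX (0.17 and 0.18), III (0.11 and 0.10) and V (0.10 and 0.11) were also raised in the mutant, and their medians in wild type lay between -0.0094 and 0.0097. Centring removes these shifts. In a stretch of 5 rows of chromosome XV that holds FIT2, FIT3 and parts of FRE3 and FRE5, genes of siderophore iron uptake, the mutant 20-min libraries had 1 and 4 reads and the mutant 40-min libraries 3 and 2, against 3967 and 3459 in the mutant 0-min libraries. The wild-type libraries had 2550 to 4397 reads there. Relative to its flanks the stretch stood at 127% and 136% in the mutant 0-min libraries, and at 128% and 136% in the wild-type 0-min libraries. Whether the libraries labelled mutant 0 min come from the same cells as the later mutant libraries was not tested, and the label is taken as given. The stretch, called the lost region below, was left out of peaks, troughs and lists. The mutant 40-min columns opposed each other, with a Pearson's r of -0.25 over 1179 windows of 10 kb, and they enter the tests below only through the shared estimate of the spread.

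The 2 mutant 20-min replicates had correlated profiles inside chromosomes. Over the 1179 windows with at least 5 rows, outside the lost region, Pearson's r between them was 0.675 and Spearman's rho 0.633. The window values had an SD of 0.0604 in replicate 1 and 0.0555 in replicate 2, and the error of a single replicate, taken from the difference of the pair, was 0.0332. The 2 columns lay on the same side of 0 in 73.9% of these windows. These correlations describe windows of the same 2 libraries over 2 different 0-min libraries, and windows share base composition and mapping. With every window and the lost region included, r was 0.758 over 1213 windows, and without the lost region it was 0.556. The 34 windows of fewer than 5 rows, of which 17 are the outermost of their chromosome arm, held the widest disagreement, with an r of 0.388 among them. Over the 1179 windows, mutant replicate 1 at 20 min had an r of 0.644 with mutant replicate 2 at 40 min, which shares no library with it. With mutant replicate 1 at 40 min the 20-min columns had -0.10 and -0.088. Their r with wild type lay between 0.050 and 0.276 at 20 min, and between -0.411 and -0.068 at 40 min. The 2 wild-type columns of 20 min had 0.586 with each other.

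**Figure D1:**
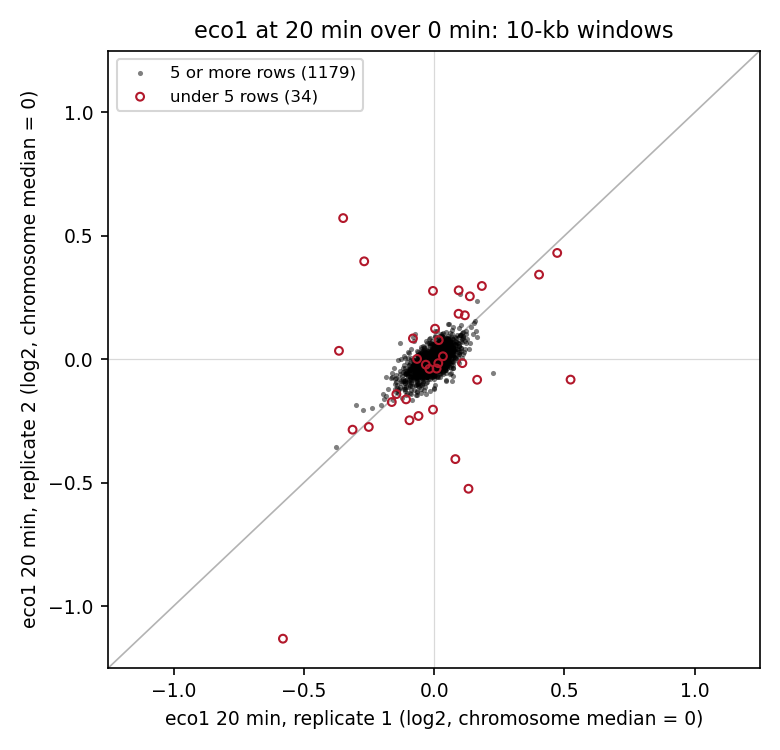
Mean log2 ratio of each 10-kb window in replicate 1 (x axis) and replicate 2 (y axis) of the eco1 mutant at 20 min over 0 min, with each chromosome's median at 0 and the lost region left out. Black dots are the 1179 windows of at least 5 rows, red circles are the 34 windows with fewer, and the grey line marks equal values; the black dots follow the line and most of the far points are red circles.

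Agreement differed between chromosomes. In windows of at least 5 rows, r was highest on chromosome I, at 0.883 over 22 windows, and next on chromosome VI, at 0.813 over 27 windows. These 2 short chromosomes also had wide profiles, with an SD over windows of 0.109 and 0.100 on chromosome I and of 0.0784 and 0.0634 on chromosome VI in replicates 1 and 2. Chromosome XIV had the lowest r, 0.434 over 76 windows, and chromosome XI followed with 0.467 over 67. The window SD on chromosome XIV was 0.0461 and 0.0508, and on chromosome XI 0.0493 and 0.0474, the 2 narrowest profiles of replicate 1. In replicate 2 chromosomes IV, XV and XVI were narrower, at 0.0455, 0.0468 and 0.0470, and their r was 0.640, 0.587 and 0.580. On chromosome IX, r was -0.06 over all 44 windows and 0.671 over the 42 with at least 5 rows. On chromosome XIII it was 0.087 over all 93 windows and 0.778 over 91, so on each of these chromosomes 2 windows with few rows made the difference.

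**Figure D2:**
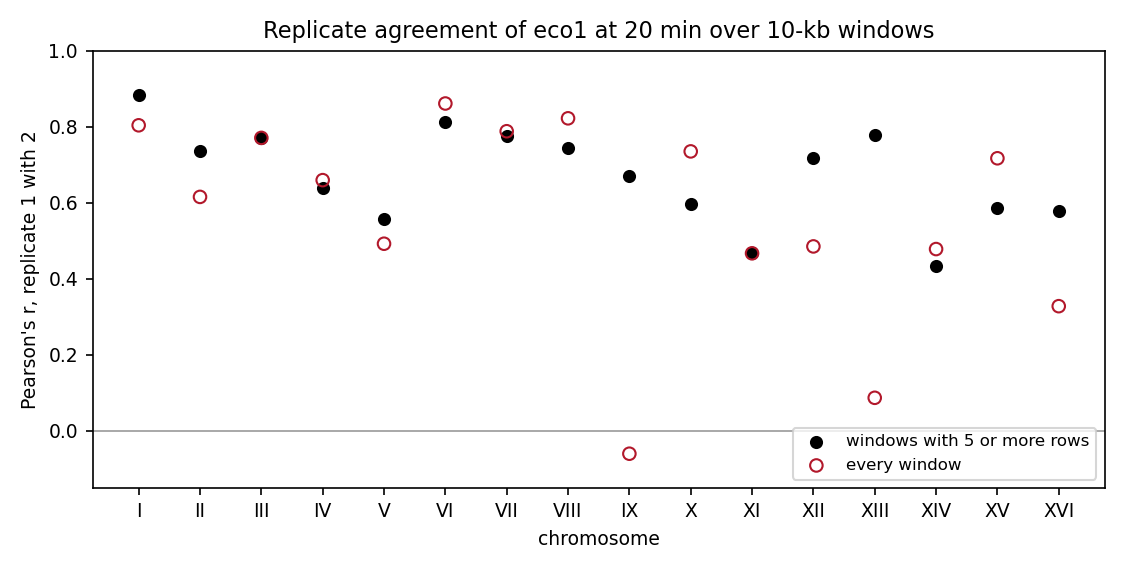
Pearson's r between the 2 replicates of the eco1 mutant at 20 min over 10-kb windows (y axis) for each of the 16 chromosomes (x axis). Black dots use windows of at least 5 rows and range from 0.434 on chromosome XIV to 0.883 on chromosome I, and red circles use every window and fall to -0.06 on chromosome IX.

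In the mean of the 2 mutant replicates, the 5-kb running mean held 519 peaks and 525 troughs. On each side of a local maximum, the lowest point was taken before the profile rises above that maximum or ends. A peak stands at least 0.1 (log2) above the higher of these points, which is its prominence, and a trough is the mirror image. Peaks had a median height of 0.079, a median spacing of 20 kb and a median width at mid-height of 7.72 kb. Troughs were deeper than peaks were high, with a median of -0.10, and narrower, at 6.34 kb. Chromosome XI was the densest in peaks, with 5.10 per 100 kb, and chromosome XIV the sparsest, with 3.70 per 100 kb.

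Most peaks were shallow, and matching by position says little about them. Replicate 1 alone had 586 peaks and replicate 2 alone 568, and 85.8% of the peaks of replicate 1 had a peak of replicate 2 within 10 kb. The same distance covers 80.4% of all positions, so that share is near what the density of peaks gives. Height read in the replicate that did not choose the peak is a closer measure. At the 586 peaks of replicate 1, replicate 2 lay above 0 at 79.0%, against 47.1% of all positions, with a median of 0.047. At the 568 peaks of replicate 2, replicate 1 lay above 0 at 78.0%, against 47.6% of all positions, with a median of 0.047. At their own peaks the 2 replicates had medians of 0.087 and 0.086, so the other replicate was lower in both directions.

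Agreement grew with prominence. At the 71 peaks of replicate 1 with a prominence of at least 0.3, replicate 2 lay above 0 at 94.4% with a median of 0.097. At the 67 such peaks of replicate 2, replicate 1 lay above 0 at 91.0% with a median of 0.10. Troughs of this size were also low in both. At the 73 troughs of replicate 1, replicate 2 lay below 0 at 95.9% with a median of -0.13, and at the 70 troughs of replicate 2, replicate 1 lay below 0 at 95.7% with a median of -0.15. Among peaks with a prominence of 0.1 to 0.2, the other replicate lay above 0 at 74.4% and 72.3%.

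The mean shape around these large peaks and troughs was also read in the replicate that did not choose them. At the peaks of replicate 1 the mean of replicate 2 was 0.091, and it had dropped to 0.015 at 5 kb on the left and -0.00055 at 5 kb on the right. At the peaks of replicate 2 the mean of replicate 1 was likewise 0.091, with -0.0060 and -0.0027 at those distances. In both readings the mutant mean had thus fallen to 0.015 or below at 5 kb. That distance is the span of the running mean, so no width of the peaks is read from it. Wild type at 20 min had lower means at the same centres, 0.050 and 0.025 in its 2 replicates at the peaks of mutant replicate 1, but higher ones at 5 kb, with 0.065 and 0.061 on the left and 0.070 and 0.044 on the right. At the peaks of mutant replicate 2 the wild-type means were 0.064 and 0.046 at the centre, 0.046 and 0.039 at 5 kb on the left and 0.076 and 0.073 on the right. All positions were summits of the mutant, and no wild-type peaks were called, so these means do not compare the width of peaks between the strains. The difference in shape was not tested.

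At the troughs the mutant means lay below the wild-type means at the centre. These positions were chosen for low values in a mutant column, and the difference was not tested. The mean of mutant replicate 2 at the troughs of replicate 1 was -0.14, and that of replicate 1 at the troughs of replicate 2 was -0.15. Wild type at 20 min averaged -0.0049 and 0.036 at the first set of positions and 0.0035 and 0.054 at the second. The wild-type profile therefore held no mean trough at the troughs of the mutant. At 10 kb to the right the mutant means were back at 0.0063 and 0.0056.

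**Figure D3:**
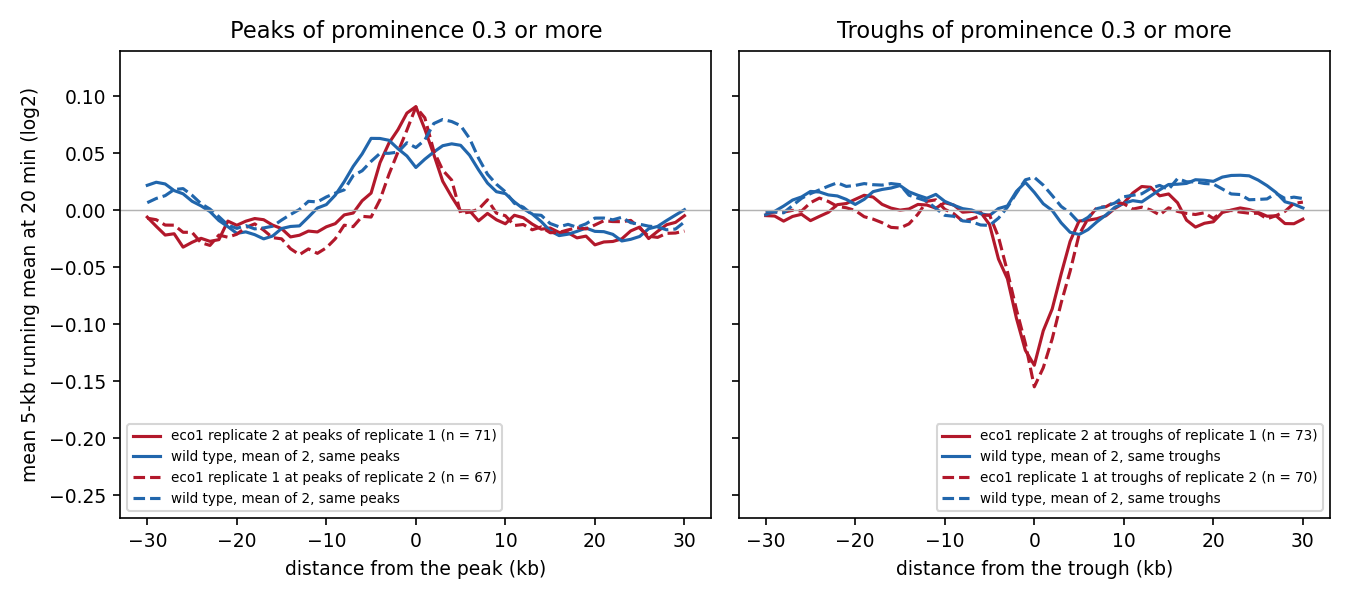
Mean 5-kb running mean at 20 min (y axis, log2) by distance in kb (x axis) from peaks (left) and troughs (right) with a prominence of at least 0.3. Red lines show an eco1 replicate at positions chosen in the other eco1 replicate, and blue lines the mean of the 2 wild-type replicates at the same positions. All positions were chosen in the mutant. The red peaks reach 0.091 and lie below the blue lines at 5 kb, and the red troughs reach -0.14 and -0.15 where the blue lines stay near 0.

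The highest peak of each chromosome, at least 20 kb from its ends, was above 0 in both mutant replicates in 16 of 16 cases. Their means ran from 0.145 to 0.214, that is 1.11 to 1.16 times the typical row of the chromosome, and the median SD between replicates was 0.035. The peaks were chosen on these values, so the heights are a description. The peak on chromosome I lay in DFP1 (chromosome I, 179281 to 179820), and the mutant had 0.22 and 0.21 there, against 0.09 and 0.05 in wild type at 20 min. The peak on chromosome III lay in APA1, which codes for a diadenosine tetraphosphate phosphorylase (chromosome III, 37836 to 38801), with 0.19 and 0.24 in the mutant and 0.25 and 0.25 in wild type. These 2 peaks were of the same height in the mutant, and wild type was lower than the mutant at DFP1 and higher at APA1. All gene positions are those of the RefSeq annotation of build R64, and the rows are in sacCer3 per the submitters' processing notes.

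The peak on chromosome IV is beside a known origin. It lay in GAL3, the galactose sensor (chromosome IV, 463434 to 464996), next to TRP1 and the origin ARS1 that adjoins it. The mutant had 0.16 and 0.21 at the peak, against 0.14 and 0.13 in wild type. Over the rows within 2.5 kb of TRP1, an enzyme gene of tryptophan synthesis (chromosome IV, 461842 to 462516), the mutant had 0.12 and 0.19 and wild type 0.11 and 0.07. Both replicates of each strain were above 0, and the mutant lay above wild type without overlap. Near HHF1, a histone H4 gene with an origin beside it (chromosome II, 255373 to 255684), the mutant had 0.11 and 0.07, against 0.28 and 0.25 in wild type. The order of the strains was thus opposite at these 2 origins, and no window there passed the test of the difference described below.

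Other peaks lay in genes of varied function. On chromosome XVI the peak was in CSR2, an adaptor of the ubiquitin ligase Rsp5, with 0.22 and 0.18 in the mutant and 0.18 and 0.09 in wild type. The peak of chromosome IX was in DAL3, of allantoin breakdown, where the mutant had 0.23 and 0.17 and wild type had 0.33 and 0.19. On chromosome II it was in FUS3, the kinase of the pheromone response (chromosome II, 192451 to 193512), where the mutant had 0.16 and 0.21 and wild type -0.04 and 0.06. At FUS3 the wild-type replicates lay on both sides of 0, and both mutant values were higher. On chromosome V the peak lay in MCM3, a subunit of the replicative helicase MCM (chromosome V, 86937 to 89852), with 0.18 and 0.12 in the mutant and 0.19 and -0.0009 in wild type. On chromosome XI it lay in TOR2, the kinase of TOR complex 2, with 0.13 and 0.19 in the mutant and 0.18 and 0.12 in wild type. The strains overlapped at MCM3, TOR2 and DAL3.

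At the next 3 peaks wild type lay near or below 0 in both replicates. At FLO5 on chromosome VIII, a flocculin gene of the cell wall 3882 bp from the peak, the mutant had 0.14 and 0.26, against -0.03 and -0.02 in wild type. At YNL034W on chromosome XIV the mutant had 0.11 and 0.18 and wild type -0.0054 and -0.02. At YOL155W-A on chromosome XV, the mutant had 0.19 and 0.21, against 0.03 and 0.0006 in wild type. FLO5 belongs to a family of similar genes, and how reads with several matches were placed is not given in the sources used here. The peaks near MET5, ZDS1, NMA2, ATG18 and AVL9, on chromosomes X, XIII, VII, VI and XII, had mutant means of 0.160 to 0.182 and wild-type means of 0.087 to 0.188.

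Across the 16 highest peaks, the mutant lay above wild type at 20 min without overlap in 9, overlapped it in 6 and lay below it in 1, APA1. Over all positions of the running mean the mutant was above without overlap in 23.6% and below in 29.4%, and the peaks were chosen for high mutant values, so nothing is read from the count of 9. The 40-min columns share the 0-min library of their replicate with the 20-min columns. At the same 16 peaks replicate 1 of the mutant at 40 min ran from -0.068 to 0.126 with a median of 0.017, and was above 0 at 10. Replicate 2 at 40 min ran from 0.071 to 0.345 with a median of 0.165, and was above 0 at 16.

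**Figure D4:**
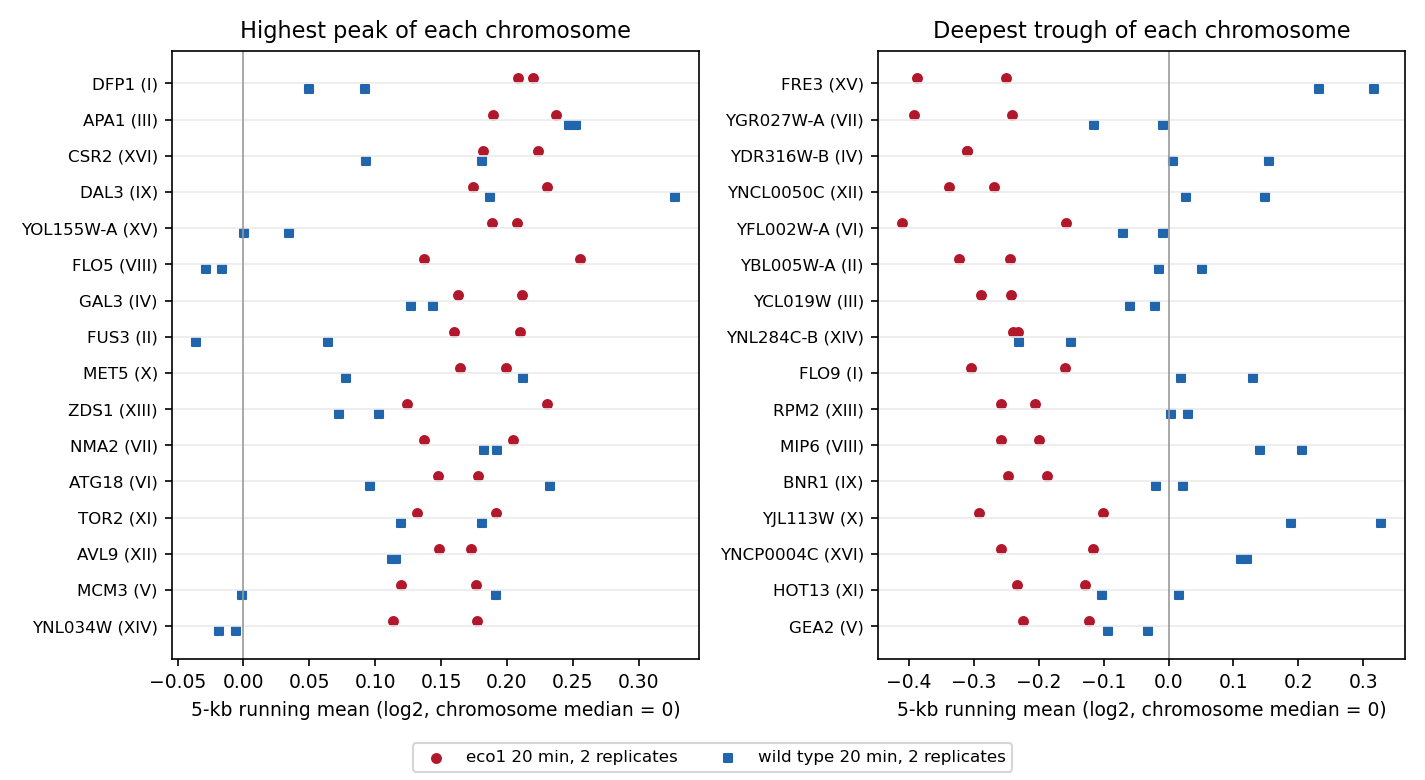
The 5-kb running mean (x axis, log2, chromosome median at 0) at the highest peak (left) and the deepest trough (right) of each chromosome in the eco1 mutant, named by the nearest gene with the chromosome in brackets. Red dots are the 2 eco1 replicates at 20 min and blue squares the 2 wild-type replicates; the red dots of the 16 troughs lie below both blue squares, and at the peaks the colours overlap in 6 of 16.

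The deepest trough of each chromosome was below 0 in both mutant replicates in 16 of 16 cases. Their means ran from -0.319 to -0.173, or 0.802 to 0.887 times the typical row, with a median SD between replicates of 0.064. Both mutant values lay below both wild-type values at all 16, against 29.4% of all positions, and these were again chosen for low mutant values. The trough at FRE3 on chromosome XV borders the lost region, and the mutant had -0.39 and -0.25 there, against 0.32 and 0.23 in wild type. It is the only one of the 16 whose window passed in the fit over all columns described below, and that window contains rows of the lost region. Leaving out rows far from the running median left too few rows for a value at 8 of the 16 troughs, namely FRE3, YGR027W-A, YNCL0050C, YFL002W-A, YBL005W-A, YCL019W, YNL284C-B and YJL113W, and at the FLO5 peak. The trough at YNCP0004C was -0.040 with that filter, against a mean of -0.19 without it.

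Several of the deepest troughs lay at or beside long frames that have no gene name in the annotation. At YGR027W-A on chromosome VII (536057 to 537379) the mutant had -0.39 and -0.24 and wild type -0.0092 and -0.12. At YFL002W-A on chromosome VI (138204 to 143517) the mutant had -0.41 and -0.16, against -0.07 and -0.0080 in wild type. At YBL005W-A on chromosome II (221330 to 222652) the mutant had -0.32 and -0.24, against -0.02 and 0.05. The mutant was below wild type at all 3, and the replicates of the mutant differed most at YFL002W-A. At YDR316W-B on chromosome IV (1096064 to 1101332) the mutant had -0.31 and -0.31, the closest pair of the 16, and wild type 0.0069 and 0.16. At YNL284C-B on chromosome XIV (96964 to 102232) the mutant had -0.23 and -0.24, and wild type had -0.23 and -0.15, so this trough was present in both strains. YCL019W on chromosome III had -0.24 and -0.29 in the mutant and -0.06 and -0.02 in wild type. YJL113W on chromosome X had -0.29 and -0.10 in the mutant and 0.19 and 0.33 in wild type, which is a high place in wild type and a low one in the mutant.

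Further troughs lay beside tRNA genes. At YNCL0050C, a tRNA gene of chromosome XII (975983 to 976056), the mutant had -0.34 and -0.27 and wild type 0.03 and 0.15. At YNCP0004C, a tRNA gene of chromosome XVI (210192 to 210263), the mutant had -0.26 and -0.12 and wild type 0.12 and 0.11. The trough beside MIP6, a gene for an RNA-binding protein on chromosome VIII (134554 to 136533), was 0.109 kb from a tRNA gene, and the mutant had -0.26 and -0.20 there, against 0.21 and 0.14 in wild type. Wild type was above 0 in both replicates at these 3. The other troughs were near FLO9, a flocculin gene of chromosome I, RPM2, of mitochondrial RNase P, BNR1, a formin gene, HOT13, of the mitochondrial intermembrane space, and GEA2, a guanine nucleotide exchange factor of Arf proteins. At these 5 the mutant means were -0.232, -0.232, -0.217, -0.181 and -0.173, and the wild-type means 0.074, 0.017, 0.0014, -0.043 and -0.063.

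The largest troughs of the whole profile were described by what lay near them. In the mean of both replicates 46 troughs had a prominence of at least 0.3, and 46 of 46 were below 0 in each replicate. A tRNA gene lay within 3 kb of 18 of them (39.1%, against 12.3% of all positions), a ribosomal protein gene within 3 kb of 10 (21.7%, against 7.36%), and a letter-suffix frame within 3 kb of 12 (26.1%, against 2.02%). The last group are 71 unnamed frames of at least 1000 bp whose locus tags end in a letter. Of them 35 are 1200 to 1400 bp long and 31 are 5000 to 5500 bp long. This list was drawn up after the troughs had been seen, in place of Ty elements, which the annotation used here does not mark. In all, 32 of 46 large troughs (69.6%) lay within 3 kb of at least 1 of the 3 kinds of locus, which cover 20.2% of positions. Of the 40 peaks of this size, 3 (7.5%) did, namely 2 near a tRNA gene, 1 near a ribosomal protein gene and 0 near a letter-suffix frame. No test was made of these shares, and the 3 kinds of locus can lie close together.

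The same positions were low in some other columns and not in all. At the 46 large troughs the median was -0.24 and -0.22 in the 2 mutant replicates at 20 min, and -0.013 and 0.027 in wild type at 20 min. In the mutant at 40 min it was 0.045 in replicate 1 and -0.24 in replicate 2, and in wild type at 40 min 0.067 and 0.17. Replicate 1 of the mutant at 40 min was below 0 at 11 of the 46, and replicate 2 at 46. The mean ratio of the 86 mitochondrial rows, less the nuclear median, was -0.24 and -0.38 in the mutant at 20 min and 0.33 and 0.23 in wild type at 20 min. In the mutant at 40 min it was 0.50 in replicate 1 and -1.15 in replicate 2, and in wild type at 40 min 0.22 and 0.88. The 46 troughs were chosen on the 2 mutant 20-min columns, so the low values there follow from the choice. Of the columns that did not choose them, only replicate 2 of the mutant at 40 min had a mitochondrial value below 0. That column also had the lowest median at the troughs, and it shares its 0-min library with a 20-min column. The role of the mitochondrial share or of library preparation in the troughs was not tested. The 14 large troughs that were not near any of the 3 kinds of locus had medians of -0.18 and -0.23 in the mutant at 20 min, -0.0078 and 0.033 in wild type at 20 min, and 0.039 and -0.21 in the mutant at 40 min.

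Read depth moved with the profile as well. Over 1179 windows the mutant 20-min columns had an r of 0.235 and 0.172 with the log2 depth of the wild-type 0-min libraries, as a description over windows of the same genome. In the fifth of windows with the lowest depth the 2 mutant columns averaged -0.045 and -0.032, and wild type at 20 min 0.026 and 0.047. In the fifth with the highest depth they averaged 0.035 and 0.027, and wild type -0.014 and -0.022. The part of depth in the peaks and troughs was not tested, and base composition was not used here because no genome sequence was given.

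Whole groups of loci were compared with their chromosomes by the mean of all rows within 2.5 kb. Ribosomal protein genes averaged -0.046 and -0.040 in the 2 mutant replicates, and -0.00024 and 0.0019 in wild type. Of their 124 windows 55.6% lay below 0 in both mutant replicates and 16.1% above, against 41.3% and 32.2% of all 1213 windows. tRNA genes averaged -0.031 and -0.020 in the mutant and 0.035 and 0.041 in wild type, and 48.2% of their 228 windows were below 0 in both mutant replicates and 25.9% above. The letter-suffix frames averaged -0.074 and -0.069 in the mutant and 0.0083 and 0.040 in wild type. The medians over windows were -0.024 for ribosomal protein genes, -0.016 for tRNA genes and -0.060 for the suffix frames, beside -0.0054 over all windows. No window of these 3 groups passed the test of the next paragraphs, so they are described by counts and means alone.

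The silent mating loci HML and HMR of chromosome III, which hold unexpressed copies of the mating-type genes, were low in the mutant relative to the rest of that chromosome. Over their rows the mutant had -0.16 and -0.15, against -0.018 and 0.11 in wild type. Around HMRA1 (chromosome III, 293835 to 294321) the mutant had -0.25 and -0.22 and wild type 0.022 and 0.020. Around HMLALPHA1 (chromosome III, 13282 to 13809) the mutant had -0.23 and -0.20, and the wild-type replicates differed widely, at -0.085 and 0.23. In the mutant at 40 min the 2 loci together had 0.18 in replicate 1 and -0.26 in replicate 2, so only replicate 2 was as low as the 20-min columns. Relative to the nuclear median the mutant mean of the 2 loci was -0.035, since the chromosome III median itself was raised in the mutant. The 32 rows around the ribosomal DNA of chromosome XII averaged -0.11 and -0.096 in the mutant and -0.014 and -0.018 in wild type. All 5 of their windows were below 0 in both mutant replicates, against 41.3% of all windows. Both groups of loci hold repeated sequence.

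Early regions showed little height in the mutant. The 8 core histone genes, which lie in 4 divergent pairs, averaged 0.021 and -0.000024 over 30 rows in the mutant and 0.17 and 0.17 in wild type. Within them HHT1 and HHF1 on chromosome II were above 0 in the mutant, at 0.13 and 0.07 for HHT1, against 0.30 and 0.23 in wild type. HTA1 had 0.035 and -0.018 in the mutant and 0.25 and 0.24 in wild type, and its partner HTB1 had 0.022 and -0.030 against 0.29 and 0.25. HTA2 and HTB2 had 0.044 and 0.057, and 0.031 and 0.042, in the mutant, against 0.18 to 0.27 in wild type. The pair HHT2 and HHF2 on chromosome XIV was below 0 in both strains, with -0.13 and -0.11 at HHT2 in the mutant and -0.025 and -0.081 in wild type. At 3 of the 4 pairs both mutant values were thus below both wild-type values, as in 29.4% of all positions.

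The centromeres did not stand above their chromosomes in the mutant. Rows within 2.5 kb of them averaged -0.046 and -0.0098 in the mutant and 0.036 and 0.026 in wild type. The centromeres of chromosomes I, II, VII and XI, 4 of 16, were above 0 in both mutant replicates, and 7 were below 0 in both. By windows of 10 kb, 31.25% of the 16 were above 0 in both and 56.25% below, against 32.2% and 41.3% of all 1213 windows. The lowest in the mutant was that of chromosome VI, with -0.19 and -0.15, against -0.10 and -0.061 in wild type. Relative to the median of all nuclear rows instead of that of each chromosome, the mean of the group was 0.027, so its sign depends on the centring. Farther out, rows 10 to 20 kb from a centromere averaged 0.017 and 0.024 in the mutant and 0.081 and 0.073 in wild type.

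Chromosome ends were uneven. The outermost 10 kb averaged 0.0035 and 0.017 in the mutant and -0.0051 and 0.071 in wild type, over only 205 rows. Rows 10 to 20 kb from an end averaged -0.041 and -0.021 in the mutant and 0.013 and 0.037 in wild type. Of the windows there, 21 of 32 (65.6%) were below 0 in both mutant replicates, against 41.3% of all windows. Rows 20 to 30 kb and 30 to 50 kb from an end averaged -0.0072 and 0.0052 over both mutant replicates. Relative to the nuclear median all 4 zones were above 0, from 0.010 to 0.083.

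**Figure D5:**
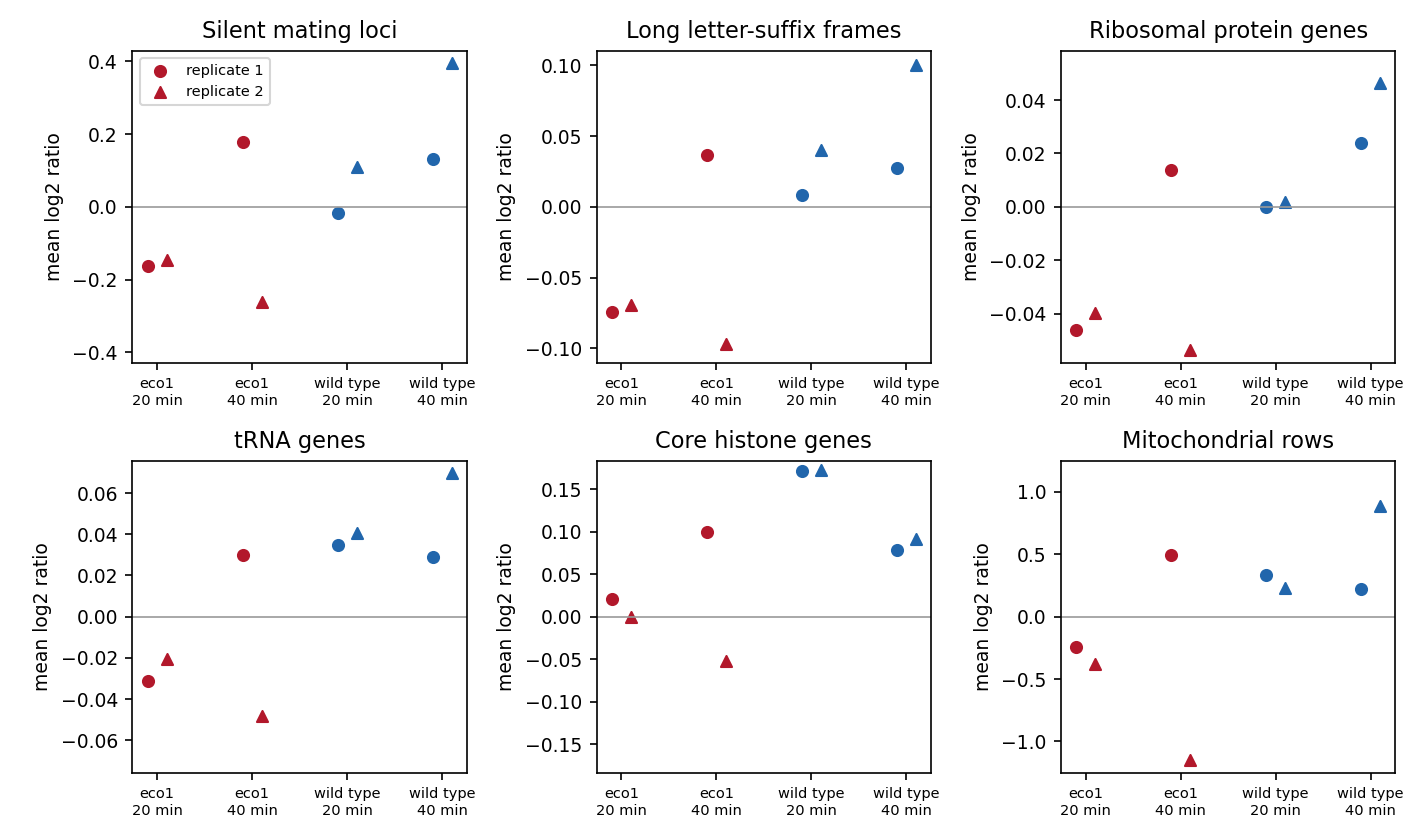
Mean log2 ratio (y axis, chromosome median at 0) of rows within 2.5 kb of the silent mating loci, the letter-suffix frames, ribosomal protein genes, tRNA genes and core histone genes, and of the mitochondrial rows less the nuclear median, in the eco1 mutant (red) and wild type (blue) at 20 and 40 min (x axis). Circles are replicate 1 and triangles replicate 2; the 2 eco1 replicates at 20 min lie close together, and those at 40 min lie on opposite sides of 0 in all 6 panels.

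Each of the 1213 windows of 10 kb was tested against its chromosome median with limma, fitted over all 8 columns in 4 groups with Benjamini-Hochberg adjustment. At an adjusted p under 0.05, 1 window was above (0.0824%) and 3 were below (0.247%), and 192 had an unadjusted p under 0.05, 84 of them above and 108 below. The windows below were those of FRE3 and YOR385W on chromosome XV, which contain the lost region, and that of PHO11, an acid phosphatase gene at the end of chromosome I, which has 1 row. The window above was that of YJL225C at the end of chromosome X, also of 1 row. PHO11 had -0.58 and -1.13 in the mutant, a mean of -0.86 with an adjusted p of 0.040, and YJL225C had 0.47 and 0.43, a mean of 0.45 with an adjusted p of 0.0049 by limma. Relative to the nuclear median PHO11 was at -0.29 with a limma adjusted p of 0.15, and its call was also lost without mutant replicate 2 at 20 min (0.47) and without either wild-type column of 20 min (0.073) or 40 min (0.054). The call of YJL225C was lost without either mutant 20-min column, with limma adjusted p of 0.17 and 0.16. With windows of fewer than 5 rows left out, 0 were above and 2 below. None of the windows at the 16 highest peaks passed, with limma adjusted p from 0.081 to 0.67. The 20- and 40-min columns of a replicate share a 0-min library, which the fit does not model. The spread in this fit includes the opposed 40-min replicates of the mutant. Without replicate 1 of the mutant at 40 min 8 windows were above and 11 below, and without its replicate 2 the counts were also 8 and 11.

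The same fit on the 2 mutant 20-min columns alone called 55 windows above (4.53%) and 116 below (9.56%). Its spread had 1 residual and 8.7 prior degrees of freedom. It thus came mostly from the differences of that pair pooled over all windows, and little from the window itself. The windows of 11 of the 16 highest peaks and of 13 of the 16 deepest troughs were among them, and these had been chosen on the same columns. Windows were named here by the rule for the first fit, after its values had been seen, which leaves out the outermost 10 kb of each chromosome, the rDNA neighbourhood and the lost region. Among the highest were the windows of YVH1, a phosphatase gene of chromosome IX, with 0.16 and 0.15, of GAL3, with 0.15 and 0.15, and of RRP7, of ribosomal RNA processing on chromosome III, with 0.12 and 0.11. CDC15, a kinase of mitotic exit on chromosome I, had 0.16 and 0.12, and ECM10, a mitochondrial Hsp70 of chromosome V, had 0.12 and 0.10. Their limma adjusted p in this fit ran from 0.0017 at YVH1 to 0.0087 at ECM10. At RRP7 wild type had -0.0050 and -0.032, below both mutant values, and at ECM10 it had 0.25 and 0.15, above both.

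The lowest windows that the rule left in that fit were those of SPB4, a helicase of ribosome assembly on chromosome VI, with -0.30 and -0.19, and of YBL005W-B on chromosome II, with -0.27 and -0.20. Next came RPS25A, a ribosomal protein gene of chromosome VII, with -0.24 and -0.20, and NEJ1, of DNA end joining on chromosome XII, with -0.20 and -0.19. The window of CHA1, a serine deaminase gene beside HML on chromosome III, had -0.18 and -0.15. Wild type at NEJ1 had -0.051 and -0.044, so the mutant was lower in both replicates there, as at SPB4, where wild type had -0.076 and -0.0084. The limma adjusted p of these windows ran from 0.00029 to 0.0013 in this fit, and from 0.16 to 0.33 in the fit over all columns.

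The difference between the mutant and wild type at 20 min was tested for each window in the fit over all columns. No window was higher in the mutant and 4 were lower (0.33%), with 173 at an unadjusted p under 0.05. They were the windows of FRE3, YOR385W and PHO11 named above and that of VMS1, a gene of protein quality control on chromosome IV. At VMS1 the mutant had 0.052 and 0.021, against 0.28 and 0.24 in wild type, and the difference was -0.22 ± 0.033 (SE) with a limma adjusted p of 0.044. In a fit blocked on replicate number, the limma adjusted p was 0.10 at VMS1 and 0.061 at PHO11. Leaving out any 1 of the 20-min columns or of the wild-type 40-min columns also ended the VMS1 call, with limma adjusted p of 0.10 to 0.46, while the difference stayed between -0.25 and -0.20. Except for FRE3, none of the windows at the 32 highest peaks and deepest troughs passed this test.

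The overall contrast of the profile at 20 min did not separate the strains. The SD over windows outside the lost region was 0.0705 and 0.0757 in the mutant and 0.0718 and 0.0859 in wild type, a difference of -0.0058. The exact two-sided permutation test gave p = 0.667, and with 2 columns against 2 it cannot go below 0.333. Without windows of fewer than 5 rows the SD was 0.0604 and 0.0555 in the mutant and 0.0653 and 0.0757 in wild type, and the groups did not overlap, with an exact p of 0.333.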

How the data were processed

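Genomic DNA of 12 libraries was sequenced after Nextera XT preparation, per the labels' protocols. CASAVA 1.8.2, Bowtie and the build sacCer3 are named in the submitters' processing notes, without roles or parameters. The authors deposited ratio columns in log2 units for rows of 1 kb, and smooth columns that were treated as a score and not used. The log base, the pseudocount and the 0-min library in each ratio are not stated. They were settled from the values, which fit log2 of (RPM + 1) in the later library over 1 library common to both times. That library was taken to be the one labelled 0 min of the same strain and replicate. Whole reads recovered on that basis gave the depths, and 1 row in each strain and replicate had no solution. Of the rows, 449 with a ratio of exactly 0 and 86 mitochondrial rows were left out of the profile.

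Each column was centred on its chromosome median. Rows were averaged in 10-kb windows for limma 3.58.1 in R 4.3.3 (4 groups, no covariate, 4 residual and 3.9 prior degrees of freedom), tested on simulated data. Peaks and troughs were called with scipy 1.17.1 on 5-kb running means. Correlations, matching and lists are descriptions without a test. Members, lists and rules were chosen with earlier results of these data known. Named loci were the highest peak and deepest trough of each chromosome, the histone genes, the silent mating loci, and TRP1 and HHF1 for their origins; no window met the rule for called windows, so those of the fit on the mutant columns alone were named, after the values had been seen. Origins and Ty elements were not annotated in the sources used here. Origins enter only through TRP1 and HHF1. The letter-suffix frames were listed in place of Ty elements, by their locus tags and lengths, and which of them are Ty frames was not checked. Alternatives were other window sizes, centring, filters, peak settings, a replicate block and libraries left out.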

Additional observations from a re-analysis of the deposited data

Results flagged for a closer look

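Results in which the mutant and wild type at 20 min differed by test, or lay on opposite sides of 0 in every replicate, are given here as the mean of the mutant minus the mean of wild type (log2). By limma the window of FRE3 differed by -2.17, that of YOR385W by -1.29, that of PHO11 by -1.22 and that of VMS1 by -0.22. The first 2 contain the lost region, and PHO11 has 1 row.

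For the others the difference was not tested. Among the groups of loci the centromeres differed by -0.059, tRNA genes by -0.064, the letter-suffix frames by -0.096, and rows 10 to 20 kb and 20 to 30 kb from chromosome ends by -0.056 and -0.027. Among the peaks of the mutant, that near FLO5 differed by 0.22 and that near YNL034W by 0.16, with wild type below 0 at both. The troughs with wild type above 0 in both replicates were those near FRE3 (-0.59), YJL113W (-0.45), MIP6 (-0.40), YDR316W-B (-0.39), YNCL0050C (-0.39), FLO9 (-0.31), YNCP0004C (-0.30) and RPM2 (-0.25). The rows around HMRA1 differed by -0.26. The mitochondrial rows, less the nuclear median, differed by -0.59, with a mean of -0.31 in the mutant and 0.28 in wild type.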

How the results depend on the processing

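Counts of windows are given here as above and below, first for the mutant against its chromosome median (1 and 3 as reported) and then for the mutant against wild type (0 and 4). Centring on the nuclear median, which keeps differences between whole chromosomes, gave 120 and 48, then 60 and 21. With only the columns of the groups compared they were 55 and 116, then 4 and 26. With the filter on rows far from the running median, which removes the lost region, they were 0 and 0 in both, and the windows of FRE3 and YOR385W turned to 0.072 and 0.043, and the difference from wild type at YOR385W to 0.077. Centring on the chromosome mean gave 2 above the median, and equal SD, the ends and rDNA left out, and windows of under 5 rows left out gave 0. Equal SD gave 9 below wild type, and 5-kb windows, 20-kb windows and an adjusted p under 0.01 gave 2 each. Without the lost region, 0 windows were below the median and 1 was below wild type. This alternative was chosen after seeing the data, like the row minimum and the mutant 0-min libraries left out. The window below wild type was that of FRE3, whose remaining rows differed by -0.34 with a limma adjusted p of 0.0093. YOR385W then differed by -0.0040, and the limma adjusted p was 0.059 at both VMS1 and PHO11. Leaving out 1 library in turn gave 0 to 8 above and 2 to 11 below the median, and 0 to 3 above and 2 to 12 below wild type, with the highest counts without either mutant 40-min column. A fit with the replicate number as a block gave 2 above and 3 below the median and 2 below wild type. Replicate differences of the mutant and wild type had an r of 0.023 at 20 min and of -0.43 at 40 min, over 1179 windows. Between the 20- and 40-min columns of 1 strain, which share a 0-min library by replicate, it was -0.052 in the mutant and 0.57 in wild type. The measure thus missed a known pairing in the mutant, and whether the numbers pair the strains was not settled.

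The number of peaks followed the settings. A 3-kb running mean gave 869 peaks and 878 troughs, a 9-kb mean 243 and 250, a prominence of 0.05 gave 835 and 841, and one of 0.15 gave 295 and 301. With either replicate left out, peaks numbered 568 to 586 and troughs 574 to 593. The share of replicate 1 peaks matched in replicate 2 was 97.2%, 64.2%, 97.7% and 71.8% under those 4 settings, where 96.5%, 45.3%, 96.4% and 57.5% of all positions lay that near a peak. For troughs it was 97.7%, 63.6%, 97.3% and 70.2%, where 97.0%, 45.2%, 96.4% and 57.2% of positions lay that near. Matching within 5 kb gave 67.2% and 69.8%, where 51.7% and 51.6% of positions lay that near. With a 9-kb mean, 9 of the 16 highest peaks and 11 of the 16 deepest troughs were over 1.5 times smaller, with medians of 0.121 and -0.123, and the peak near YNL034W turned to -0.0019; the cause was not tested. Without mutant replicate 1, 3 troughs were over 1.5 times smaller. With the row filter 8 of the 16 troughs and 1 of the 16 peaks had no value left. Agreement of the replicates was 0.549 with the row filter and 0.556 without the lost region.

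The groups of loci were steeper close to the loci. Within 1 kb on each side tRNA genes averaged -0.055, ribosomal protein genes -0.064, silent mating loci -0.29 and the suffix frames -0.097, and within 5 kb they averaged -0.015, -0.027, -0.13 and -0.049. With nuclear centring the values were 0.027 at centromeres, -0.012 at tRNA genes, -0.035 at the silent mating loci, -0.13 around the rDNA and -0.080 at the suffix frames, and at the ends, by distance, 0.083, 0.010, 0.042 and 0.058. With the row filter the histone genes averaged 0.030, the suffix frames -0.047, and the ends at 0 to 10 and 20 to 30 kb -0.0087 and -0.0018. With 1 replicate alone the ranges were -0.046 to -0.0098 for centromeres, -0.031 to -0.020 for tRNA genes and -0.16 to -0.15 for the silent mating loci. The SD over windows, as the mean of 2 columns, stayed lower in the mutant under all 4 alternatives. In 2 of them wild-type replicate 1 lay below both mutant replicates. These were 5-kb windows, with 0.0828 against 0.0880 and 0.0864, and 20-kb windows, with 0.0525 against 0.0527 and 0.0557. The counting SD of a 5-kb mean is 0.0339 and 0.0347 in the 2 mutant columns, beside a median peak height of 0.079.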
